A study of Mus musculus with 12 samples.

Results

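The genes described here encode the parts of the extracellular matrix that are not collagens: elastic fibres and microfibrils, the lysyl oxidases that crosslink them, small leucine-rich proteoglycans, adhesive and matricellular glycoproteins, CCN proteins, hyaluronan and versican, and the basement membrane. The list held 53 mouse genes, chosen by name for their role in the matrix and not by a threshold on any value. The choice was made with earlier results of these data known, so it is not independent of them. Array probes were found for 52 of them through the accession given for each probe, and 51 passed the filter on dim probes. They were compared among the 14446 genes tested in all, of 21367 named genes on the array. Of the other 2, no probe was matched to Prelp, and Hapln1 was too dim.

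Expression was measured in mouse embryonic fibroblasts (MEFs), primary connective tissue cells grown from C57BL/6 embryos at embryonic days 12.5 to 13.5, on 12 one-colour arrays. All groups carried viral vectors. The RASV12-first cells received a vector for RASV12, an oncogenic form of RAS, and then one for shp53, a hairpin RNA that targets p53 (TS cells in the design text). The shp53-first cells received the same vectors in the opposite order (T cells in the design text), the RASV12 cells carried RASV12 alone and the shp53 cells carried shp53 alone. Each group had 3 arrays, which the design text calls independent biological replicates. No cells without a vector were analysed here, so every comparison is between transduced populations, and the promoters of the vectors and the embryos behind each replicate are not given in the sources used here.

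Fibroblasts secrete most of the matrix of connective tissue. Fibrillins form microfibrils, on which tropoelastin is laid down with the help of fibulins and crosslinked by lysyl oxidases; small leucine-rich proteoglycans bind collagen fibrils, and matricellular proteins such as thrombospondins and CCN proteins act on cells more than they bear load. Laminins, nidogens and perlecan build the basement membrane, and hyaluronan, made at the cell surface, binds versican. Loss of fibronectin and of other matrix proteins has long been described in fibroblasts transformed by oncogenes.

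The promoters of 4 genes are printed because they belong to genes on which the comparisons below turn and each holds a motif searched for; they were picked after the values and matches were seen. Svep1 and Lama2 were lower in RASV12-first than in shp53-first cells, Ogn was higher there, and Efemp1 was higher in RASV12 than in shp53 cells. Windows run from 250 bases before to 50 bases after the start of a gene (RefSeq, build GRCm38.p6), 5′ to 3′ on the strand of the gene. Capitals mark TGANTCA, with any base as N, GGAATG or its complement, or the CArG box. The first is a loose form of the AP-1 motif and read TGAATCA in Efemp1. GGAATG is the TEAD motif (in Svep1 and Ogn), and the CArG box is the motif of serum response factor (in Lama2).
Svep1, chr4:58206547-58206846, minus strand: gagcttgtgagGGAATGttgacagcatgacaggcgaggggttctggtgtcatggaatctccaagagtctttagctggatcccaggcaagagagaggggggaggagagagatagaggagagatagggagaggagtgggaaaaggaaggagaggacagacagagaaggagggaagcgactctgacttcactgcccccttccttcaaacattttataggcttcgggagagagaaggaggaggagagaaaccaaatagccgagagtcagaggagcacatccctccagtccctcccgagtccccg
Lama2, chr10:27616893-27617192, minus strand: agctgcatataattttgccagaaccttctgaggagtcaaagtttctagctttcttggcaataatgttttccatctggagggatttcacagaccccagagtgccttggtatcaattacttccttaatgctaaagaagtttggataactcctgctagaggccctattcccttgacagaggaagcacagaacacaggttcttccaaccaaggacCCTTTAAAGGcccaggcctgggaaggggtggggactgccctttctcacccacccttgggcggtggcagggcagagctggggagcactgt
Ogn, chr13:49607765-49608064, plus strand: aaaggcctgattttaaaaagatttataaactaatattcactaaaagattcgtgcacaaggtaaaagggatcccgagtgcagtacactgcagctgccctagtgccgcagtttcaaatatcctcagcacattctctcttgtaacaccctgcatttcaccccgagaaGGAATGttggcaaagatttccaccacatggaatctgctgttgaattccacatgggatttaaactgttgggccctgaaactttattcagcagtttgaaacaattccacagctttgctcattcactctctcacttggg
Efemp1, chr11:28852955-28853254, plus strand: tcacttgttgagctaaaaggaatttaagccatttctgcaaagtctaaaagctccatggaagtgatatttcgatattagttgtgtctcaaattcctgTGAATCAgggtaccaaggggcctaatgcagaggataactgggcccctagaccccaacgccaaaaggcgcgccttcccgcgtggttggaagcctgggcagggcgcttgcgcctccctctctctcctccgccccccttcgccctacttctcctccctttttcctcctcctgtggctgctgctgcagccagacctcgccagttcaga
Such windows were held for 33 of the listed genes, 41 windows in all. The loose AP-1 motif stood in 3 of the 41 (7.32%), against 7.81% of all 32851 windows. The TEAD motif stood in 5 (12.2%, against 14.7% of all windows) and the CArG box in 1 (2.44%, against 1.63%). The shares among the matrix genes were thus close to those among all promoters, and a match is only a match of letters.

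Levels are log2 signals relative to the 75th percentile of the same array, so a level of 0 is the signal of a bright spot and a difference of 1 is a doubling. Between 56.6% and 62.4% of the spots of an array were well above background. Trp53, the target of the hairpin, read -4.14, -4.01 and -3.83 in RASV12-first cells, -3.98, -3.43 and -3.44 in shp53-first cells and -0.35, -0.75 and -0.58 in RASV12 cells, against -3.22, -3.55 and -3.06 in shp53 cells. Relative to RASV12 cells its log2 fold change was -3.43 ± 0.20 (adjusted p = 1.01e-06) in RASV12-first and -3.05 ± 0.20 (adjusted p = 7.27e-06) in shp53-first cells. Hras, a mouse RAS gene, read 0.79, 1.47 and 1.64 in RASV12-first cells, 1.34, 2.08 and 1.99 in shp53-first cells and 2.63, 2.36 and 2.84 in RASV12 cells, against 2.05, 2.19 and 1.999 in shp53 cells. It did not pass in RASV12 over shp53 cells (0.53 ± 0.25, adjusted p = 0.155) and was lower in RASV12-first than in shp53 cells (-0.78 ± 0.25, adjusted p = 0.0295), so it gave no check of the RASV12 labels; whether its probe reads the vector is not given in the sources used here. The 10 fibroblast markers were well above background on every array. In each group 1 pair of arrays was far closer than the others, with r of 0.993 to 0.997 across genes in these pairs and 0.967 to 0.981 in the rest. The array that stood apart was replicate 1 in both groups with 2 vectors and replicate 2 in RASV12 and in shp53 cells. Among the matrix genes, the SD of the difference between arrays was 0.13 to 0.40 within the close pairs and 0.80 to 1.13 in the other pairs. P-values therefore measure the spread between these arrays, and counts are also given with each close pair averaged into 1 array and without the arrays that stood apart. In these bulk samples, fewer cells of a type and less RNA per cell cannot be told apart.

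Most of these matrix genes were at their highest in shp53 cells. The mean was highest in shp53 cells for 35 of the 51 genes, in RASV12 cells for 9, in RASV12-first cells for 6 and in shp53-first cells for 1. Relative to shp53 cells, 32 genes fell and 3 rose in RASV12-first cells, when 23.8% of all genes tested fell and 21.7% rose (a gene was called at an adjusted p under 0.05). In shp53-first cells 36 fell and 2 rose, against 20.3% and 17.2% of all genes. In RASV12 cells 34 fell and 5 rose, against 12.8% and 14.3% of all genes. The shares that fell, 62.7%, 70.6% and 66.7% of the 51, exceeded those of all genes in each comparison. The median log2 fold changes were -1.40, -1.54 and -1.45, against 0.02, 0.03 and 0.05 over all genes tested. These comparisons share the shp53 arrays, so they are not independent of each other. In all 3, 27 genes fell (7.88% of all genes tested) and 2, Has2 and Lamb1, rose (5.58% of all genes). Abi3bp, Fndc1 and Ecm2 passed the filter on dim probes only through shp53 cells, so their falls are partly fixed by it. With only genes well above background on all 12 arrays, 43 matrix genes were left. Of these 24, 29 and 26 fell and 3, 2 and 5 rose, when 43.5%, 35.1% and 24.4% of all such genes were called.

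Within single slides, which held 1 array of each group, the median of the 51 differences from shp53 cells was -1.48, -1.78 and -1.71 in RASV12-first cells. It was -1.29, -1.39 and -1.78 in shp53-first cells and -1.64, -1.04 and -1.63 in RASV12 cells. The groups did not overlap for 38, 39 and 40 of the 51 genes (74.5%, 76.5% and 78.4%), when 56.5%, 53.2% and 51.1% of all genes tested did not. With close pairs averaged, 25, 20 and 16 genes were called, against 17.2%, 11.7% and 7.06% of all genes. Without the arrays that stood apart 47, 46 and 45 were, when most genes of any kind were called (72.2%, 68.2% and 58.3%). Markers of macrophages moved the same way: 9 of 11 tested were called lower in each of the 3 comparisons. Of the 12 listed, 11 were well above background on all shp53 arrays. In RASV12-first, shp53-first and RASV12 cells 5, 5 and 7 were so on all arrays. Some thus passed the filter on dim probes only through shp53 cells, so these counts are partly fixed by it. Their summed level was 3.19, 2.67 and 2.59 in RASV12-first cells, 3.39, 3.17 and 3.64 in shp53-first cells and 3.71, 4.36 and 3.20 in RASV12 cells, against 6.58, 3.61 and 6.57 in shp53 cells. Of the 12 genes of that list, 6, 7 and 3 were well above background on no array of these groups, among them Ptprc, the leukocyte common antigen. In shp53 cells every marker was well above background on at least 1 array. In RASV12 relative to shp53 samples, 43, 38 and 43 of the 51 matrix genes were lower on slides 1, 2 and 3. The median difference of all genes tested was 0.07, -0.02 and 0.07 there. Of the 10 fibroblast markers, 3 fell in each comparison with shp53, and 3, 2 and 1 rose in RASV12-first, shp53-first and RASV12 cells. Their summed level was 7.84 to 8.55 in RASV12-first, 7.92 to 8.22 in shp53-first and 7.93 to 8.54 in RASV12 cells, against 8.48 to 8.84 in shp53 cells. Of 3 endothelial markers tested, 1 rose and 1 fell in RASV12-first, 1 fell in shp53-first and 1 rose in RASV12 cells, and the 1 epithelial marker tested rose in RASV12 cells. Des, the 1 skeletal muscle marker tested, fell in all 3, but it passed the filter on dim probes only through shp53 cells, so its falls are partly fixed by it. The part of these markers' cells in the matrix gene results was not tested. The position of an array on its slide was the same for all replicates of a group, so position and group cannot be told apart.

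**Figure D1:**
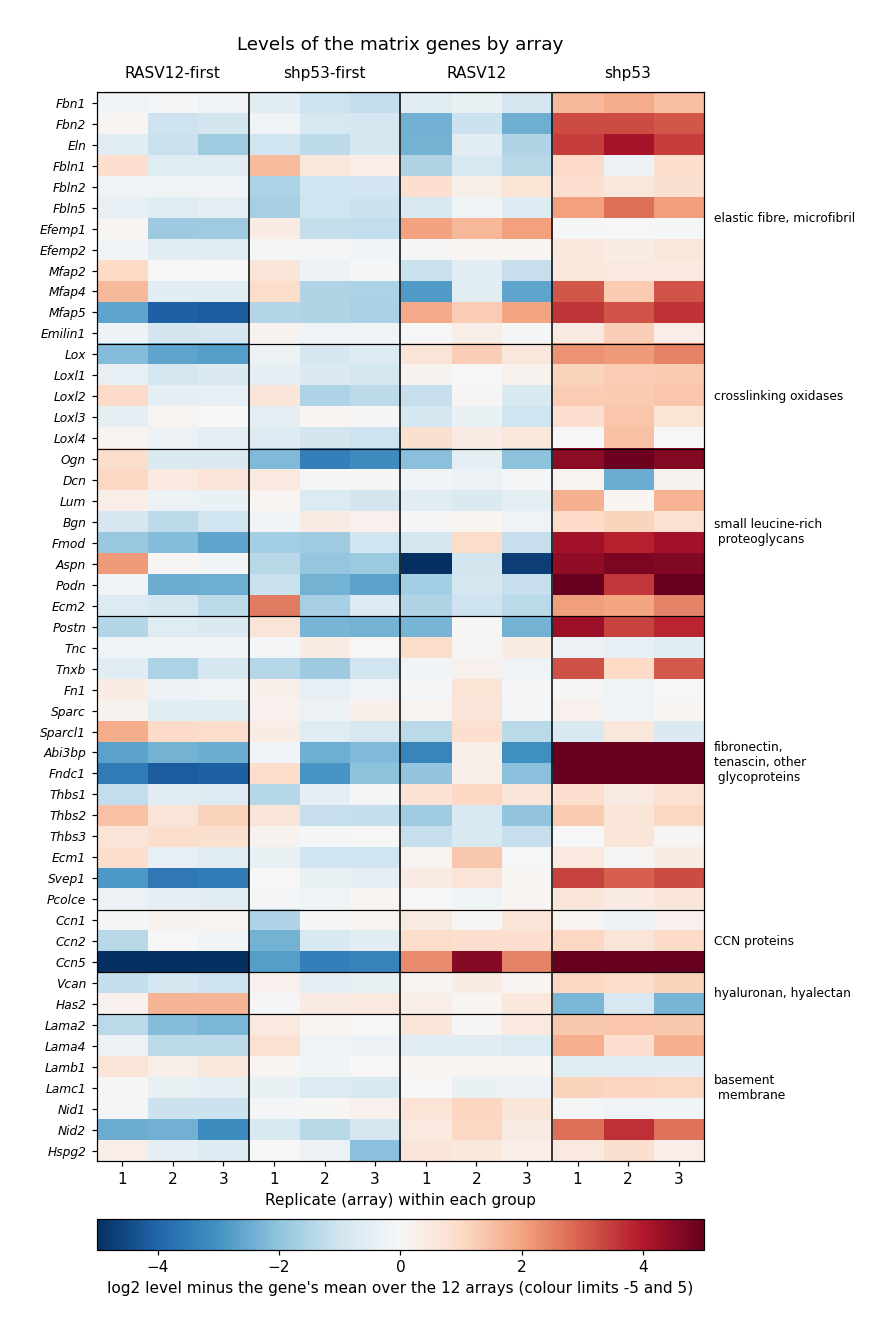
Each row is 1 of the 51 genes tested, in order of role, and each column 1 array, from RASV12-first cells on the left to shp53 cells on the right. Colour gives the log2 level minus the mean of that gene over the 12 arrays, with colours ending at -5 and 5. The 3 shp53 columns are red for most genes, while Has2 and Lamb1 are blue there.

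**Figure D2:**
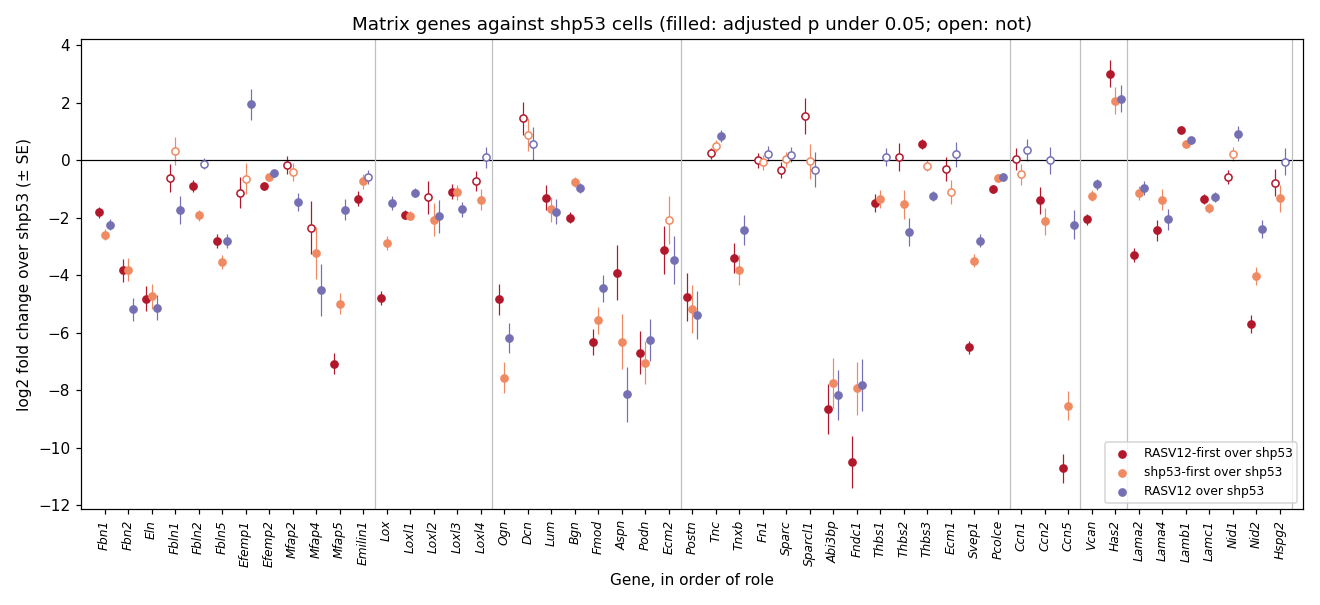
Log2 fold change over shp53 cells (vertical axis) of each gene (horizontal axis, in order of role, grey lines between roles) in RASV12-first, shp53-first and RASV12 cells, with bars of 1 SE and 3 arrays in each group. Filled points had an adjusted p under 0.05. The lowest points are those of Ccn5 and Fndc1 in RASV12-first cells, where neither was well above background, and Has2 and Lamb1 are above 0 in all 3 comparisons.

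Of the elastic fibre and microfibril genes, 8 of 12 fell in RASV12-first, 9 in shp53-first and 9 in RASV12 cells relative to shp53 cells. Only Efemp1 rose, in RASV12 cells. Eln, which encodes tropoelastin, read -4.19, -4.72 and -5.37 in RASV12-first cells, -4.62, -4.92 and -4.48 in shp53-first cells and -5.96, -4.12 and -5.12 in RASV12 cells, against -0.17, 0.50 and -0.14 in shp53 cells. One of the RASV12 arrays, replicate 1, was not well above background. All 9 arrays with RASV12 lay far below the shp53 arrays, and the log2 fold changes over shp53 were -4.82 ± 0.43 (adjusted p = 1.55e-05), -4.73 ± 0.43 (adjusted p = 2.65e-05) and -5.13 ± 0.43 (adjusted p = 2.33e-05). Those 3 groups overlapped for Eln and passed in no comparison among them.

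Fbn1 and Fbn2 encode fibrillins, the backbone of microfibrils. Fbn1 read 2.28, 2.33 and 2.28 in RASV12-first cells, 1.90, 1.39 and 1.26 in shp53-first cells and 1.88, 2.09 and 1.60 in RASV12 cells, against 4.08, 4.31 and 3.94 in shp53 cells. Relative to shp53 cells its log2 fold changes were -1.81 ± 0.19 (adjusted p = 4.26e-05), -2.59 ± 0.19 (adjusted p = 7.29e-06) and -2.25 ± 0.19 (adjusted p = 2.28e-05). Fbn2 read -0.17, -1.31 and -1.18 in RASV12-first cells, -0.42, -1.07 and -1.13 in shp53-first cells and -2.66, -1.33 and -2.72 in RASV12 cells, against 3.004, 3.01 and 2.83 in shp53 cells. It fell in all 3 comparisons with shp53, most in RASV12 cells (-5.18 ± 0.40, adjusted p = 1.3e-05), and was higher in RASV12-first than in RASV12 cells, with a log2 fold change of 1.35 ± 0.40 (adjusted p = 0.0226). That call was lost when RASV12 replicate 1 or 3 or RASV12-first replicate 1 was left out, with adjusted p up to 0.0857.

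Fbln5, a fibulin needed for elastic fibre assembly, read 3.06, 2.87 and 2.99 in RASV12-first cells, 1.83, 2.48 and 2.42 in shp53-first cells and 2.70, 3.32 and 2.86 in RASV12 cells, against 5.55, 6.24 and 5.58 in shp53 cells. No array of the other groups reached the shp53 arrays, and its log2 fold changes were -2.81 ± 0.24 (adjusted p = 1.21e-05), -3.55 ± 0.24 (adjusted p = 4.71e-06) and -2.83 ± 0.24 (adjusted p = 2.61e-05). Fbln2 followed another order and read 5.76, 5.82 and 5.85 in RASV12-first cells, 4.41, 4.96 and 5.01 in shp53-first cells and 6.82, 6.28 and 6.65 in RASV12 cells, against 6.82, 6.52 and 6.78 in shp53 cells. RASV12 and shp53 cells overlapped (-0.13 ± 0.19, adjusted p = 0.673), and both groups with 2 vectors were below them, with a log2 fold change of -1.91 ± 0.19 (adjusted p = 4.7e-05) in shp53-first over shp53 cells. Efemp1, another fibulin, read 1.46, -0.44 and -0.42 in RASV12-first cells, 1.76, 0.17 and 0.13 in shp53-first cells and 3.38, 3.01 and 3.43 in RASV12 cells, against 1.30, 1.41 and 1.28 in shp53 cells. It was higher in RASV12 cells than in any other group, with a log2 fold change over shp53 of 1.94 ± 0.53 (adjusted p = 0.0213), while RASV12-first cells fell relative to RASV12 (-3.08 ± 0.53, adjusted p = 0.00146). The rise over shp53 lost its call when shp53 replicate 1 or 3 or RASV12 replicate 1 or 3 was left out (adjusted p up to 0.0676).

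Mfap5, a microfibril-associated glycoprotein, showed the widest range of this role and read -1.14, -2.60 and -2.69 in RASV12-first cells, 0.01, -0.03 and -0.15 in shp53-first cells and 3.39, 2.77 and 3.45 in RASV12 cells, against 5.06, 4.65 and 5.08 in shp53 cells. The 4 groups did not overlap. Its log2 fold change over shp53 was -7.07 ± 0.37 (adjusted p = 3.15e-07) in RASV12-first, -4.99 ± 0.37 (adjusted p = 7.46e-06) in shp53-first and -1.73 ± 0.37 (adjusted p = 0.00601) in RASV12 cells. Mfap2, a related protein of microfibrils, read 3.77, 2.79 and 2.77 in RASV12-first cells, 3.39, 2.51 and 2.68 in shp53-first cells and 1.66, 2.21 and 1.61 in RASV12 cells, against 3.31, 3.25 and 3.27 in shp53 cells. It was lowest in RASV12 cells, with -1.45 ± 0.31 (adjusted p = 0.00586) over shp53, and higher in RASV12-first than in RASV12 cells (1.28 ± 0.31, adjusted p = 0.00837). Mfap4 and Fbln1 fell in RASV12 relative to shp53 cells (-4.53 ± 0.91, adjusted p = 0.0044 and -1.75 ± 0.48, adjusted p = 0.0225); the Fbln1 call was lost without shp53 replicate 1 or 3 or RASV12 replicate 1 or 3 (adjusted p up to 0.086). Efemp2, a fibulin, and Emilin1, an elastin-associated glycoprotein, fell in RASV12-first relative to shp53 cells, with log2 fold changes of -0.90 and -1.34.

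Of a further 18 elastic fibre and microfibril genes tested that are not on the list, 9 fell in RASV12-first, shp53-first and RASV12 cells alike, and 3, 3 and 0 rose relative to shp53. The share that fell was 50% each time, against 23.8%, 20.3% and 12.8% of all genes tested. Of these listed genes 17 were well above background on all shp53 arrays, and 14, 16 and 14 on all arrays of the other groups. Genes that passed the filter on dim probes only through shp53 cells can thus raise this share. Adamtsl1, of the ADAMTS-like family of fibrillin-binding proteins, had log2 fold changes over shp53 of -3.93 ± 0.25 (adjusted p = 2.66e-06) in shp53-first and -3.21 ± 0.25 (adjusted p = 1.3e-05) in RASV12 cells, and was well above background on no RASV12-first array.

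The lysyl oxidases crosslink elastin and collagen. Relative to shp53 cells, 3 of the 5 fell in RASV12-first cells, all 5 in shp53-first cells and 4 in RASV12 cells, and none rose. Lox read -0.47, -0.95 and -1.06 in RASV12-first cells, 1.42, 0.83 and 1.04 in shp53-first cells and 2.31, 2.91 and 2.24 in RASV12 cells, against 3.94, 3.80 and 4.16 in shp53 cells. The groups formed 4 separate levels, and log2 fold changes over shp53 were -4.79 ± 0.23 (adjusted p = 2.16e-07), -2.87 ± 0.23 (adjusted p = 1.33e-05) and -1.48 ± 0.23 (adjusted p = 0.00112). Loxl1, linked to elastic fibre upkeep, read 2.79, 2.31 and 2.49 in RASV12-first cells, 2.75, 2.46 and 2.30 in shp53-first cells and 3.36, 3.19 and 3.37 in RASV12 cells, against 4.33, 4.46 and 4.52 in shp53 cells. It had log2 fold changes over shp53 of -1.90 ± 0.16 (adjusted p = 9.84e-06), -1.93 ± 0.16 (adjusted p = 1.47e-05) and -1.13 ± 0.16 (adjusted p = 0.000592), and both groups with 2 vectors were below RASV12 cells. Loxl3 read -0.47, 0.16 and 0.06 in RASV12-first cells, -0.40, 0.13 and -0.04 in shp53-first cells and -0.83, -0.29 and -0.97 in RASV12 cells, against 0.89, 1.41 and 0.73 in shp53 cells. Its 3 log2 fold changes were -1.09 ± 0.26 (adjusted p = 0.00629), -1.11 ± 0.26 (adjusted p = 0.00739) and -1.71 ± 0.26 (adjusted p = 0.000855), and the shp53 arrays lay above all others. Loxl2 fell in RASV12 cells (-1.96 ± 0.56, adjusted p = 0.027), a call lost when any shp53 array or RASV12 replicate 1 or 3 was left out (adjusted p up to 0.0979). Loxl4 did not pass in RASV12 over shp53 cells (0.10 ± 0.36, adjusted p = 0.871) and was lower in shp53-first than in RASV12 cells (-1.47 ± 0.36, adjusted p = 0.0142), a call lost without RASV12 replicate 1 (adjusted p = 0.0539).

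Small leucine-rich proteoglycans had the lowest median log2 fold change over shp53 of the roles with more than 3 genes, at -3.52 in RASV12-first, -3.83 in shp53-first and -3.97 in RASV12 cells. Of the 8 tested, 7, 6 and 7 fell and none rose. Aspn, asporin, a collagen-binding member of the family, read -0.19, -2.29 and -2.49 in RASV12-first cells, -3.73, -4.25 and -4.18 in shp53-first cells and -7.35, -3.24 and -7.05 in RASV12 cells, against 2.10, 2.37 and 2.29 in shp53 cells. Replicates 1 and 3 of the RASV12 cells were not well above background and replicate 2 was. Log2 fold changes over shp53 were -3.91 ± 0.96 (adjusted p = 0.0075), -6.31 ± 0.96 (adjusted p = 0.000636) and -8.13 ± 0.96 (adjusted p = 0.000182), and RASV12-first cells were above RASV12 cells on all arrays (4.22 ± 0.96, adjusted p = 0.00628).

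Ogn, osteoglycin, read 0.66, -0.92 and -0.92 in RASV12-first cells, -2.41, -3.63 and -3.35 in shp53-first cells and -2.28, -0.68 and -2.26 in RASV12 cells, against 4.28, 4.68 and 4.37 in shp53 cells. Its levels were highest in shp53 cells, with log2 fold changes of -4.84 ± 0.54 (adjusted p = 6.03e-05), -7.57 ± 0.54 (adjusted p = 5.61e-06) and -6.18 ± 0.54 (adjusted p = 2.61e-05). Fmod, fibromodulin, read -5.79, -6.07 and -6.52 in RASV12-first cells, -5.59, -5.66 and -4.88 in shp53-first cells and -4.76, -2.98 and -5.05 in RASV12 cells, against 0.31, -0.02 and 0.29 in shp53 cells. Only 1 of the 3 RASV12-first arrays was well above background, and Fmod had log2 fold changes over shp53 of -6.32 ± 0.47 (adjusted p = 3.87e-06), -5.57 ± 0.47 (adjusted p = 1.58e-05) and -4.46 ± 0.47 (adjusted p = 8.9e-05). Podn, podocan, read -1.86, -4.18 and -4.14 in RASV12-first cells, -2.81, -4.05 and -4.35 in shp53-first cells and -3.40, -2.58 and -2.86 in RASV12 cells, against 4.00, 1.86 and 4.07 in shp53 cells. Replicate 2 of the shp53 cells lay below the other shp53 arrays and still exceeded all arrays of other groups, with log2 fold changes of -6.70 ± 0.74 (adjusted p = 6.16e-05), -7.04 ± 0.74 (adjusted p = 6.56e-05) and -6.25 ± 0.74 (adjusted p = 0.000197). Bgn, biglycan, fell in every group relative to shp53, with log2 fold changes of -1.996, -0.76 and -0.97. Lum, lumican, had log2 fold changes of -1.31, -1.71 and -1.80, and each of these 3 calls was lost without shp53 replicate 1 or 3, that in RASV12-first cells also without RASV12-first replicate 2 or 3 (adjusted p up to 0.119). Ecm2 was well above background on all 3 shp53 arrays and on no RASV12-first or RASV12 array, so it was at least 2.94-fold and 2.97-fold lower there (adjusted p = 0.0117 and 0.0111). It passed the filter on dim probes only through shp53 cells, so these p-values are no support for the fall.

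Dcn, decorin, was the exception in this family. It read 7.31, 6.78 and 6.96 in RASV12-first cells, 6.77, 6.25 and 6.34 in shp53-first cells and 6.17, 6.00 and 6.24 in RASV12 cells, against 6.42, 3.80 and 6.48 in shp53 cells, and no comparison passed. Replicate 2 of the shp53 cells lay below all other arrays. With replicate number as a block, RASV12-first over shp53 cells gave 1.45 (adjusted p = 0.0417), and without the arrays that stood apart RASV12 over shp53 cells gave -0.25 (adjusted p = 0.0488). Of 31 other proteoglycan and hyaluronan genes tested, 14, 15 and 11 fell and 2, 3 and 4 rose in RASV12-first, shp53-first and RASV12 cells relative to shp53. The shares that fell were 45.2%, 48.4% and 35.5%, against 23.8%, 20.3% and 12.8% of all genes tested. Of these listed genes 30 were well above background on all shp53 arrays, and 20, 22 and 23 on all arrays of the other groups. Genes that passed the filter on dim probes only through shp53 cells can thus raise these shares. Omd, osteomodulin, another small leucine-rich proteoglycan, had log2 fold changes over shp53 of -4.96 ± 0.44 (adjusted p = 1.37e-05) in RASV12-first and -5.63 ± 0.44 (adjusted p = 1.01e-05) in shp53-first cells, and was well above background on no RASV12 array.

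Among the 14 glycoproteins, 7, 8 and 8 fell and 1, 0 and 1 rose relative to shp53 cells in RASV12-first, shp53-first and RASV12 cells. Abi3bp, a matrix protein named for its binding to ABI3, read -6.50, -6.18 and -6.33 in RASV12-first cells, -3.98, -6.28 and -6.06 in shp53-first cells and -7.13, -3.56 and -6.89 in RASV12 cells, against 2.53, 1.91 and 2.47 in shp53 cells. Of the 9 arrays with RASV12, 2 were well above background, RASV12 replicate 2 and shp53-first replicate 1. Abi3bp was at least 313-fold lower in RASV12-first cells (adjusted p = 3.18e-05), and its measured log2 fold changes, each with 1 of 3 arrays above background, were -7.74 ± 0.87 (adjusted p = 9.47e-05) in shp53-first and -8.16 ± 0.87 (adjusted p = 9.67e-05) in RASV12 cells. Fndc1, a protein with fibronectin type III domains, read -7.49, -8.10 and -8.04 in RASV12-first cells, -3.06, -6.91 and -6.00 in shp53-first cells and -5.92, -3.64 and -6.02 in RASV12 cells, against 2.93, 2.04 and 2.88 in shp53 cells. It was at least 389-fold lower in RASV12-first cells (adjusted p = 1.14e-05). In shp53-first and in RASV12 cells 1 of 3 arrays was well above background, and the measured log2 fold changes were -7.94 ± 0.90 (adjusted p = 0.000103) and -7.81 ± 0.90 (adjusted p = 0.000168). A dimmer probe of Fndc1 gave smaller falls, of -5.85, -4.41 and -5.47. Abi3bp and Fndc1 passed the filter on dim probes only through shp53 cells, so their p-values against shp53 are no support for the falls.

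Svep1, a large adhesive protein that binds integrins, read -2.65, -3.36 and -3.29 in RASV12-first cells, 0.20, -0.19 and -0.30 in shp53-first cells and 0.62, 0.86 and 0.31 in RASV12 cells, against 3.58, 3.18 and 3.45 in shp53 cells. No 2 groups overlapped, shp53-first and RASV12 cells lay closest, and log2 fold changes over shp53 were -6.50 ± 0.23 (adjusted p = 4.6e-08), -3.50 ± 0.23 (adjusted p = 3.44e-06) and -2.81 ± 0.23 (adjusted p = 1.91e-05). Postn, periostin, read -0.13, 0.70 and 0.60 in RASV12-first cells, 1.95, -0.99 and -1.06 in shp53-first cells and -1.02, 1.37 and -1.05 in RASV12 cells, against 5.59, 4.70 and 5.13 in shp53 cells. It had log2 fold changes over shp53 of -4.75 ± 0.83 (adjusted p = 0.00115), -5.17 ± 0.83 (adjusted p = 0.000922) and -5.37 ± 0.83 (adjusted p = 0.001). Tnxb, a tenascin of loose connective tissue, also fell in the 3 groups, with log2 fold changes of -3.41, -3.83 and -2.44. Tnc, another tenascin, rose in RASV12 cells, at 3.25, 2.41 and 2.71, against 2.06, 1.94 and 1.83 in shp53 cells (0.85 ± 0.20, adjusted p = 0.0114).

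Thrombospondins are matricellular regulators of adhesion, and the 3 measured followed different orders. Thbs1 read 4.88, 5.56 and 5.44 in RASV12-first cells, 4.67, 5.67 and 5.99 in shp53-first cells and 6.81, 7.12 and 6.71 in RASV12 cells, against 6.95, 6.55 and 6.86 in shp53 cells. It was lower in both groups with 2 vectors than in either group with 1, for example -1.58 ± 0.32 (adjusted p = 0.00316) in RASV12-first over RASV12 cells, while RASV12 and shp53 cells overlapped. Thbs2 read 4.39, 3.59 and 4.07 in RASV12-first cells, 3.58, 1.80 and 1.76 in shp53-first cells and 1.16, 2.17 and 0.95 in RASV12 cells, against 4.24, 3.54 and 3.99 in shp53 cells. It fell in RASV12 relative to shp53 cells (-2.49 ± 0.49, adjusted p = 0.00394), and was higher in RASV12-first than in RASV12 cells (2.59 ± 0.49, adjusted p = 0.00242). Thbs3 read 2.61, 2.86 and 2.75 in RASV12-first cells, 2.13, 1.91 and 1.94 in shp53-first cells and 0.82, 1.21 and 0.81 in RASV12 cells, against 1.99, 2.56 and 2.01 in shp53 cells. It too was lowest in RASV12 cells (-1.24 ± 0.18, adjusted p = 0.000703 over shp53) and highest in RASV12-first cells. The rise of Thbs3 over shp53 in RASV12-first cells, 0.55 ± 0.18 (adjusted p = 0.0306), was lost without shp53 replicate 1 or 3 or RASV12-first replicate 2 or 3 (adjusted p up to 0.116).

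Fn1, fibronectin, and Sparc, a collagen-binding glycoprotein of fibroblasts, passed in no comparison. Fn1 read 7.08, 6.41 and 6.52 in RASV12-first cells, 6.96, 6.29 and 6.51 in shp53-first cells and 6.64, 7.38 and 6.63 in RASV12 cells, against 6.78, 6.51 and 6.72 in shp53 cells. All 4 groups overlapped, and the largest difference was -0.30 in shp53-first over RASV12 cells (adjusted p = 0.443). Sparc read 7.19, 6.45 and 6.44 in RASV12-first cells, 7.23, 6.70 and 7.26 in shp53-first cells and 7.16, 7.62 and 6.89 in RASV12 cells, against 7.21, 6.79 and 7.12 in shp53 cells on its brightest probe. Its other 2 probes disagreed with that: in RASV12-first over shp53 cells they gave -1.77 (adjusted p = 0.00125) and -1.70 (0.00333, both adjusted over probes), and the mean of the probes fell in shp53-first over shp53 cells (-0.93, adjusted p = 0.0164). No direction is given for Sparc. Of 31 other matrix glycoproteins tested, 22, 21 and 16 fell and 2, 5 and 3 rose relative to shp53 in RASV12-first, shp53-first and RASV12 cells. The shares that fell were 71%, 67.7% and 51.6%, against 23.8%, 20.3% and 12.8% of all genes tested. Of these listed genes 30 were well above background on all shp53 arrays, and 24, 26 and 25 on all arrays of the other groups. The filter on dim probes can thus raise these shares too. Ccn4 fell in all 3, with log2 fold changes of -2.69, -2.97 and -2.75.

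CCN proteins are secreted, modular regulators of adhesion and growth factor signalling. Ccn5, which lacks the last module of the family, read -7.29, -7.73 and -7.73 in RASV12-first cells, -4.99, -5.65 and -5.58 in shp53-first cells and 0.14, 2.32 and 0.22 in RASV12 cells, against 3.36, 2.74 and 3.30 in shp53 cells. It was well above background on no RASV12-first array, on 2 of the 3 shp53-first arrays and on all others. Ccn5 was at least 557-fold lower in RASV12-first than in shp53 cells and at least 118-fold lower than in RASV12 cells (adjusted p = 1.52e-07 and 1.31e-06). Log2 fold changes over shp53 were -8.54 ± 0.50 (adjusted p = 1.66e-06) in shp53-first and -2.24 ± 0.50 (adjusted p = 0.00772) in RASV12 cells. Ccn2 read 4.17, 5.53 and 5.44 in RASV12-first cells, 3.18, 4.82 and 4.98 in shp53-first cells and 6.49, 6.40 and 6.42 in RASV12 cells, against 6.60, 6.20 and 6.54 in shp53 cells. RASV12 and shp53 cells overlapped, and both groups with 2 vectors were below them, with -2.11 ± 0.47 (adjusted p = 0.00964) in shp53-first over RASV12 cells. The lower Ccn2 of RASV12-first cells lost its call when 7 of the 12 arrays were left out singly in the comparison with RASV12 (adjusted p up to 0.114), and when shp53 replicate 1 or 3 or RASV12-first replicate 1 was left out in that with shp53 (adjusted p up to 0.0998). Ccn1 read 4.58, 4.87 and 4.84 in RASV12-first cells, 3.16, 4.65 and 4.84 in shp53-first cells and 5.15, 4.75 and 5.30 in RASV12 cells, against 4.85, 4.41 and 4.89 in shp53 cells and passed in no comparison.

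The transcripts of the hyaluronan synthase and of versican moved in opposite directions. Has2, the main hyaluronan synthase of fibroblasts, read 1.93, 3.44 and 3.40 in RASV12-first cells, 1.63, 2.13 and 2.20 in shp53-first cells and 2.07, 1.83 and 2.27 in RASV12 cells, against -0.56, 0.93 and -0.61 in shp53 cells. It rose relative to shp53 cells, with 3.0 ± 0.47 (adjusted p = 0.0006) in RASV12-first, 2.06 ± 0.47 (adjusted p = 0.00685) in shp53-first and 2.13 ± 0.47 (adjusted p = 0.0075) in RASV12 cells. The shp53 replicate 2 was above the other shp53 arrays, and no array of another group was as low as it. Vcan, the versican core protein, which binds hyaluronan, read -0.15, 0.19 and 0.02 in RASV12-first cells, 1.28, 0.60 and 0.66 in shp53-first cells and 1.20, 1.42 and 1.13 in RASV12 cells, against 2.09, 1.97 and 2.19 in shp53 cells. It had log2 fold changes over shp53 of -2.06 ± 0.19 (adjusted p = 1.68e-05), -1.24 ± 0.19 (adjusted p = 0.000657) and -0.83 ± 0.19 (adjusted p = 0.00817); of 2 dimmer Vcan probes, 1 gave -1.75, -0.78 and -0.74 and passed, and the other gave -0.76, -0.58 and -0.40 and did not. Hapln1, the link protein between the 2, was well above background on 2 shp53-first arrays, 1 RASV12 array and 1 shp53 array only and was not tested.

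Basement membrane genes also split. Lamb1, a laminin β chain, read 6.10, 5.76 and 6.00 in RASV12-first cells, 5.58, 5.34 and 5.43 in shp53-first cells and 5.56, 5.61 and 5.57 in RASV12 cells, against 4.86, 4.92 and 4.90 in shp53 cells. It rose relative to shp53 in RASV12-first, shp53-first and RASV12 cells, with 1.06 ± 0.12 (adjusted p = 7.7e-05), 0.56 ± 0.12 (adjusted p = 0.00527) and 0.69 ± 0.12 (adjusted p = 0.00213). Lamc1, the laminin γ chain of the same trimers, fell and read 2.75, 2.32 and 2.18 in RASV12-first cells, 2.37, 1.996 and 1.93 in shp53-first cells and 2.68, 2.36 and 2.38 in RASV12 cells, against 3.81, 3.76 and 3.71 in shp53 cells, with log2 fold changes of -1.35 ± 0.18 (adjusted p = 0.000202), -1.66 ± 0.18 (adjusted p = 7.5e-05) and -1.29 ± 0.18 (adjusted p = 0.000516). Lama2, a laminin α chain prominent in muscle basement membrane, read -2.83, -3.66 and -3.77 in RASV12-first cells, -0.98, -1.32 and -1.50 in shp53-first cells and -0.88, -1.40 and -0.98 in RASV12 cells, against -0.11, -0.11 and -0.14 in shp53 cells. Its log2 fold changes over shp53 were -3.30 ± 0.25 (adjusted p = 4.57e-06), -1.15 ± 0.25 (adjusted p = 0.00513) and -0.97 ± 0.25 (adjusted p = 0.0161), and the RASV12 call was lost without shp53 replicate 1 or RASV12 replicate 2 (adjusted p up to 0.0563). Lama4 fell in the 3 groups, with log2 fold changes of -2.44, -1.38 and -2.06, the call in shp53-first cells being lost without shp53 replicate 1 or 3 or shp53-first replicate 2 or 3 (adjusted p up to 0.0601).

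Nidogens link laminin to collagen IV. Nid2 read -5.41, -5.30 and -6.08 in RASV12-first cells, -3.67, -4.31 and -3.77 in shp53-first cells and -2.43, -1.90 and -2.49 in RASV12 cells, against -0.18, 0.72 and -0.21 in shp53 cells. Only replicate 2 of the RASV12-first cells was well above background, the 4 groups did not overlap, and log2 fold changes over shp53 were -5.71 ± 0.31 (adjusted p = 4.18e-07), -4.02 ± 0.31 (adjusted p = 9.73e-06) and -2.38 ± 0.31 (adjusted p = 0.000353). Nid1 read 4.86, 3.86 and 3.86 in RASV12-first cells, 4.85, 4.99 and 5.13 in shp53-first cells and 5.59, 6.00 and 5.53 in RASV12 cells, against 4.83, 4.75 and 4.77 in shp53 cells. It was higher in RASV12 than in shp53 cells (0.92 ± 0.25, adjusted p = 0.0216), a call lost without shp53 replicate 1 or 3 or RASV12 replicate 2 (adjusted p up to 0.0725), and lower in RASV12-first than in RASV12 cells (-1.51 ± 0.25, adjusted p = 0.00122). Hspg2, perlecan, passed only in shp53-first over shp53 cells (-1.33 ± 0.47, adjusted p = 0.047), where a dimmer probe gave -0.43; 1 of the shp53-first arrays, at 0.98, lay far below the other 2, and leaving out any 1 of 10 of the 12 arrays removed the call (adjusted p up to 0.113). Of 13 other laminin and basement membrane genes tested, 7, 7 and 5 fell and 1, 1 and 2 rose in the 3 comparisons with shp53. The shares that fell were 53.8%, 53.8% and 38.5%, against 23.8%, 20.3% and 12.8% of all genes tested.

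The order of the 2 vectors was compared directly between RASV12-first and shp53-first cells. There 8 of the 51 genes were lower (15.7%) and 6 higher (11.8%) in RASV12-first cells, when 8.47% of all genes tested were lower and 7.31% higher. The median log2 fold change was 0.03, against 0.00 over all genes tested, and the within-slide medians were 0.22, 0.10 and 0.02. The groups did not overlap for 26 genes (51.0%), against 32.1% of all genes tested. Centring arrays on their median gave 7 lower and 9 higher. Normexp background correction gave no call, with 9 genes at an unadjusted p under 0.05, and positive values for Ccn5 (0.62) and Nid2 (0.48). With 75 extreme local backgrounds replaced, an alternative added after the data were seen, normexp gave 12 calls and neither sign turned. The lower genes were Svep1, Ccn5, Lama2, Mfap5, Lox, Nid2, Bgn and Vcan, and the higher ones Ogn, Thbs2, Fbln2, Fbn1, Thbs3 and Lamb1. No macrophage marker was called in this comparison, while 2 of 10 fibroblast markers were lower (20%) and 1 of 3 endothelial markers was higher. With close pairs averaged 3 genes were called, Svep1, Lox and Lama2, against 2.94% of all genes. Without the arrays that stood apart 35 were, against 47.8% of all genes. Same-numbered samples of these 2 groups deviated alike from their group means, with r of 0.59, 0.43 and 0.30. Replicate number and slide coincide, so paired samples and a shared slide cannot be told apart. With the replicate as a block 16 genes were called, the 2 further ones being Fbln5 (0.73, adjusted p = 0.0443) and Lama4 (-1.06, adjusted p = 0.0337).

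Per array, the lower genes separated cleanly. Svep1 was at -2.65, -3.36 and -3.29 with RASV12 first, against 0.20, -0.19 and -0.30 with shp53 first, and differed by -3.00 ± 0.23 (adjusted p = 1.65e-05). Lox, at -0.47, -0.95 and -1.06 in RASV12-first and 1.42, 0.83 and 1.04 in shp53-first cells, gave -1.92 ± 0.23 (adjusted p = 0.000384). Lama2, at -2.83, -3.66 and -3.77 in RASV12-first and -0.98, -1.32 and -1.50 in shp53-first cells, gave -2.15 ± 0.25 (adjusted p = 0.000272). No array of one order reached those of the other for these 3 genes. Mfap5 differed by -2.09 ± 0.37 (adjusted p = 0.00368), with RASV12-first replicate 1 at -1.14 above the other 2, and Nid2 by -1.68 ± 0.31 (adjusted p = 0.0048). Ccn5 was at least 1.49-fold lower in RASV12-first cells (adjusted p = 0.0148), a call lost without RASV12-first replicate 2 or 3 (adjusted p up to 0.053). The proteoglycans Bgn and Vcan differed by -1.24 ± 0.18 (adjusted p = 0.00126) and -0.83 ± 0.19 (adjusted p = 0.0141).

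Of the higher genes, Ogn was at 0.66, -0.92 and -0.92 in RASV12-first cells, against -2.41, -3.63 and -3.35 in shp53-first cells (2.73 ± 0.54, adjusted p = 0.00649), and Fbln2 at 5.76, 5.82 and 5.85 in RASV12-first cells, against 4.41, 4.96 and 5.01 in shp53-first cells (1.02 ± 0.19, adjusted p = 0.00541). For both the groups were separate. Fbn1, with 0.78 ± 0.19 (adjusted p = 0.0197), and Thbs3, with 0.74 ± 0.18 (adjusted p = 0.0198), lost the call when replicate 2 or 3 of either group was left out (adjusted p up to 0.0764 and 0.0724). Lamb1, with 0.50 ± 0.12 (adjusted p = 0.0192), lost it without shp53-first replicate 2 or 3 or RASV12-first replicate 3 (adjusted p up to 0.0772). Thbs2, with 1.64 ± 0.49 (adjusted p = 0.0472), lost it when 10 of the 12 arrays were left out singly, all but RASV12 replicate 2 and shp53-first replicate 1 (adjusted p up to 0.158). When only these 2 groups were fitted, with the replicate block, an alternative added after the data were seen, Fbn1, Lamb1 and Vcan had adjusted p of 0.0552, 0.0516 and 0.0898.

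**Figure D3:**
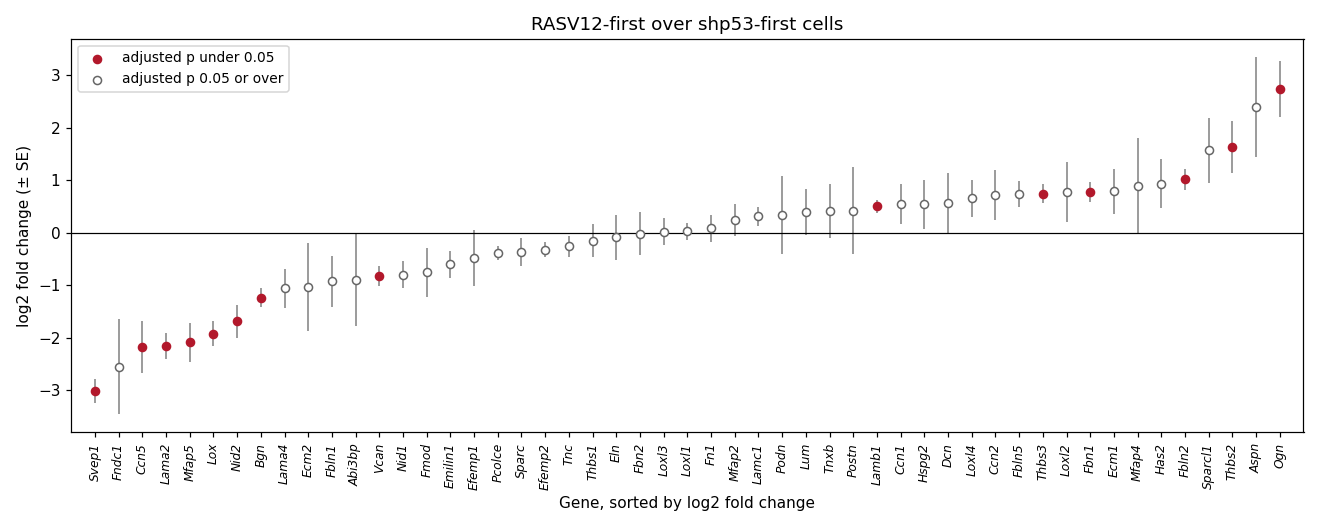
Log2 fold change in RASV12-first over shp53-first cells (vertical axis) of the 51 genes sorted by it (horizontal axis), with bars of 1 SE and 3 arrays in each group. Red points had an adjusted p under 0.05: 8 below 0, from Svep1 at -3.00 to Vcan at -0.83, and 6 above 0, up to Ogn at 2.73.

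Genes outside the list were called as well, when 8.47% of all genes tested were lower and 7.31% higher. Of 18 other elastic fibre genes 2 were lower (11.1%) and 2 higher (11.1%). Of 31 other proteoglycan and hyaluronan genes 5 were lower (16.1%) and 3 higher (9.68%). Of 31 other glycoproteins 9 were lower (29%) and 3 higher (9.68%). Of 13 other laminin and basement membrane genes 2 were lower (15.4%) and 1 higher (7.69%). All these counts rest on few genes, of lists chosen with earlier results of these data known, and are not read as a result. Ltbp2, a microfibril protein of the family named latent TGF-β binding proteins, was lower in RASV12-first cells, with -3.15 ± 0.18 (adjusted p = 1.62e-06). Slit2, a secreted guidance protein, was lower, with -3.89 ± 0.24 (adjusted p = 3.25e-06). Optc, the small leucine-rich proteoglycan opticin, was higher, with 2.57 ± 0.30 (adjusted p = 0.000255).

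Adding the second vector was examined from each side. In shp53-first over shp53 cells, the comparison that adds RASV12, 36 fell and 2 rose, as given above. In RASV12-first over RASV12 cells, which adds shp53, 20 fell (39.2%) and 7 rose (13.7%), when 21.6% and 17.1% of all genes tested did so. The median there was -0.44, against -0.07 over all genes, and the within-slide medians were 0.03, -0.66 and -0.51, so slide 1 did not share the shift. The groups did not overlap for 33 genes (64.7%), against 51.1% of all genes tested. With close pairs averaged 8 genes were called, against 10.3% of all genes, and without the arrays that stood apart 44, against 66.7%. Median centring gave 14 lower and 12 higher. Normexp gave 8 calls and turned the sign of Emilin1, Fmod, Fndc1, Lamb1 and Nid2, none of them called then. With the extreme local backgrounds replaced it gave 24 calls and turned none of these signs. These 2 comparisons share no array, but they share slides and 1 estimate of the spread, so they are not fully independent.

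In both, 17 of the 51 genes fell, against 8.55% of all genes tested, and 1, Lamb1, rose, against 6.18%. Those that fell were Fbln2, Efemp2, Mfap5, Emilin1, Lox, Loxl1, Bgn, Fmod, Fndc1, Thbs1, Svep1, Pcolce, Ccn2, Ccn5, Vcan, Lama2 and Nid2. The falls in RASV12-first over RASV12 cells were -5.35 ± 0.37 (adjusted p = 3.78e-06) for Mfap5, -3.31 ± 0.23 (adjusted p = 4.71e-06) for Lox and -3.70 ± 0.23 (adjusted p = 1.86e-06) for Svep1. In this comparison the calls of Fndc1, Emilin1, Ccn2 and Lamb1 were each lost when any of 7 or 8 of the 12 arrays was left out (adjusted p up to 0.134), and those of Efemp2 and Pcolce when either of RASV12-first replicates 2 and 3 or RASV12 replicate 3 was, or RASV12 replicate 2 for Efemp2 and 1 for Pcolce (adjusted p up to 0.113). In shp53-first over shp53 cells, Emilin1 lost its call on leaving out any of 9 arrays (adjusted p up to 0.138). Fndc1 was well above background on no RASV12-first and 1 RASV12 array, so its call sets dim signals side by side, with a bound of at least 1.74-fold lower. A dimmer Fndc1 probe gave -0.37 in RASV12-first over RASV12 cells and did not pass. In 3 genes the directions were opposite, as in 4.43% of all genes: Fbn2, Aspn and Thbs2 fell with -3.82, -6.31 and -1.54 in shp53-first over shp53 cells, and rose with 1.35, 4.22 and 2.59 in RASV12-first over RASV12 cells. For Thbs2 the fall was lost without shp53 replicate 1 or 3 or shp53-first replicate 2 or 3 (adjusted p up to 0.113). For Aspn only replicate 2 of the RASV12 cells was well above background, and RASV12-first cells read -0.19, -2.29 and -2.49, against -7.35, -3.24 and -7.05 in RASV12 cells. Sparcl1, a relative of Sparc, rose in RASV12-first over RASV12 cells alone (1.86 ± 0.62, adjusted p = 0.037), a call lost without RASV12 replicate 1 or 3 or any RASV12-first array (adjusted p up to 0.13).

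Relative to RASV12 cells, shp53-first cells had 12 lower (23.5%) and 4 higher genes (7.84%), when 15.1% and 10.2% of all genes tested were. The median was -0.18, against -0.05 over all genes, with within-slide medians of 0.02, -0.84 and -0.33. The groups did not overlap for 23 genes (45.1%), a share near the 43.5% of all genes. With close pairs averaged 3 genes were called, against 2.71% of all genes, and without the arrays that stood apart 37, against 58%. Ccn5, Mfap5 and Fbln2, the 3 called with pairs averaged, were lower, with -6.30 ± 0.50 (adjusted p = 3.13e-05), -3.26 ± 0.37 (adjusted p = 0.000262) and -1.79 ± 0.19 (adjusted p = 0.000198). Fbln1, Fbn2, Mfap2 and Thbs3 were higher, for example Fbln1 at 2.87, 1.86 and 1.65 in shp53-first cells, against -0.21, 0.52 and -0.10 in RASV12 cells (2.06 ± 0.48, adjusted p = 0.0124). The Fbn2 call was lost without RASV12 replicate 1 or 3 or any shp53-first array, and the Mfap2 call without replicate 1 or 3 of either group (adjusted p up to 0.118 and 0.111).

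A set of 5 genes, picked after the values were seen, differed in all 6 comparisons and in the same order; 0.935% of all genes tested were called in all 6, in any order. Mfap5, Lox, Svep1, Ccn5 and Nid2 were lowest in RASV12-first cells, then in shp53-first cells, then in RASV12 cells, and highest in shp53 cells. The neighbours closest to each other were shp53-first and RASV12 cells for Svep1, at -0.69 ± 0.23 (adjusted p = 0.0498), a call lost when 9 of the 12 arrays were left out singly (adjusted p up to 0.147). The order did not hold under normexp, where RASV12-first over shp53-first cells gave 0.62 for Ccn5 and 0.48 for Nid2, and RASV12-first over RASV12 cells 0.19 for Nid2. These signs did not turn with the extreme local backgrounds replaced. Between the 2 orders of vectors Ccn5 also lost its call without RASV12-first replicate 2 or 3. Dcn, Fn1, Sparc and Ccn1 passed in none of the 6, as did 32.5% of all genes, and the other 42 genes passed in 1 to 5.

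**Figure D4:**
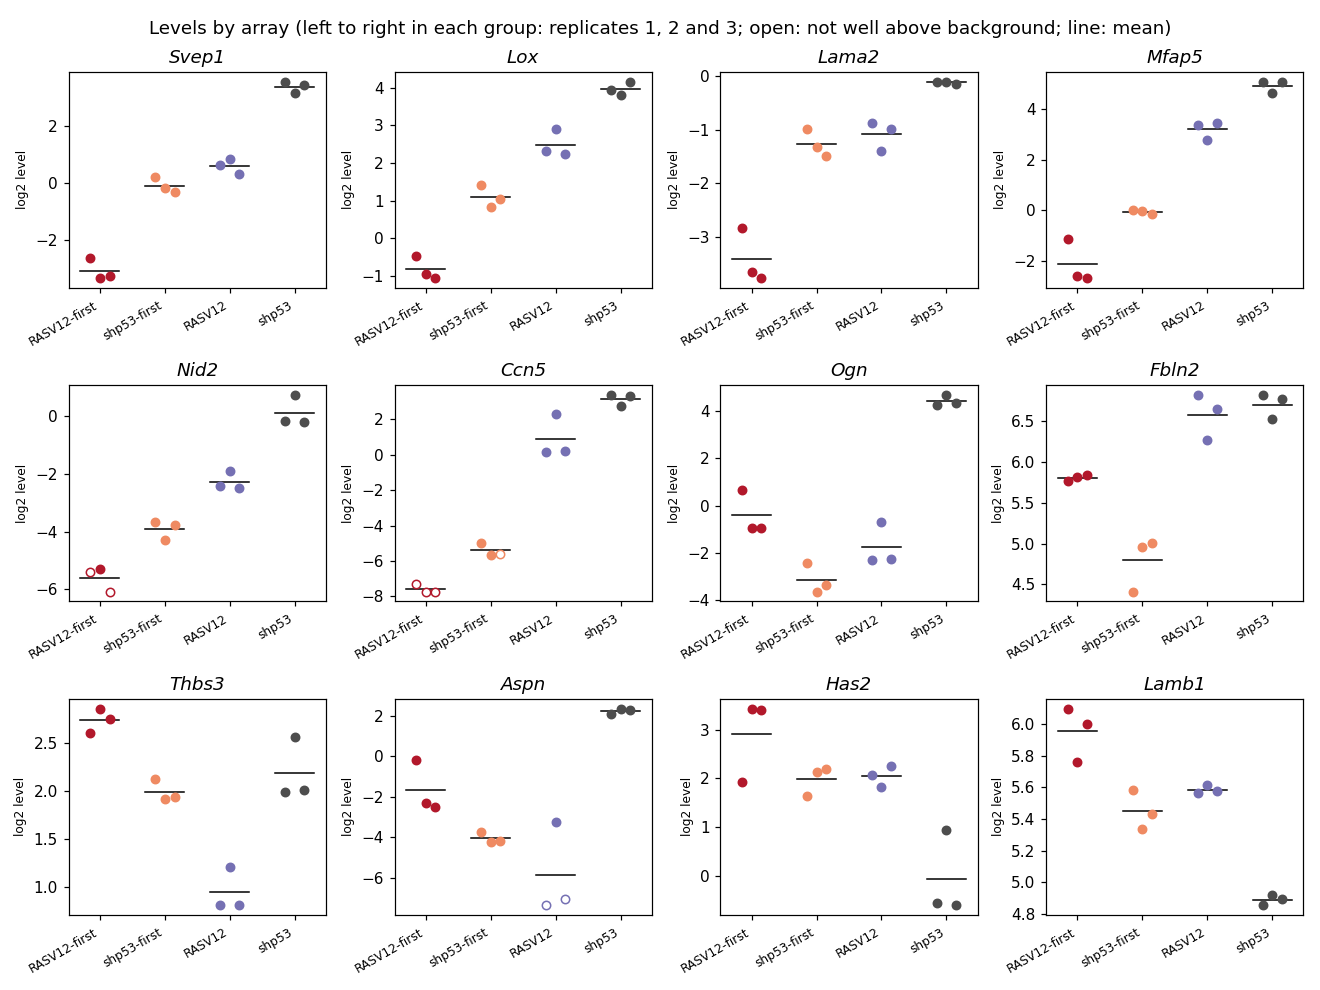
Log2 level (vertical axis, each panel on its own scale) by array in the 4 groups for 12 genes. Points are arrays, in the order of replicates 1, 2 and 3, open points were not well above background, and lines are group means. Svep1, Lox, Mfap5, Nid2 and Ccn5 step up from RASV12-first to shp53 cells, Ogn and Thbs3 are higher in RASV12-first than in shp53-first cells, and Has2 and Lamb1 are lowest in shp53 cells.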

How the data were processed

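RNA was measured on 12 one-colour Agilent arrays, 100 ng of RNA each per the labels. Per the file headers, the authors deposited processed signal intensity from Feature Extraction 11.5.1.1 (the submitters' processing notes give 10.7.3.1), background-subtracted within the array, and the median pixel intensity of each spot and its local background. Among other deposited values are marks, 0 or 1, for saturated or outlying spots and for those well above background. A deposited table of log2 values (25916 probes) gave r of 0.990 to 0.99982 across probes with the values rebuilt here; each probe had been centred on the median of the shp53 arrays.

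Of 43020 spots per array that are not controls, for 39429 probes, 0.333% of values were left out as marked and 0 were saturated. Log2 signal minus the 75th percentile of the array was averaged over the spots of a probe. A probe was kept if 1 group or more had it well above background on 3 of 3 arrays (23909 probes), accessions were named through a RefSeq table, and the brightest kept probe stood for a gene (17 of the 52 genes with a probe had several). All 12 arrays were fitted with limma 3.58.1 (R 4.3.3) with 1 mean per group and 6 comparisons, and a call is an adjusted p under 0.05 (Benjamini-Hochberg) over all 14446 genes. Errors after ± are standard errors from that fit, with 3 arrays in each group. A fold written "at least" sets the brighter group against the dimmest signal that was well above background on each array. An exact permutation test of 3 against 3 arrays, two-sided, has 0.1 as its smallest p. The number of arrays limits the precision.

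The slide had the replicate's number, and the arrays of a slide shared a scan. Deviations from group means of same-numbered RASV12-first and shp53-first samples correlated at 0.59, 0.43 and 0.30. Other pairs of groups gave -0.34 to 0.25. Since number and slide coincide, these values cannot tell paired samples from a shared slide, and the reported fit had no replicate block. The members and lists were chosen with earlier results of these data known. Full values go to up to 4 members of each role with the smallest adjusted p, to those called in opposite directions when a second vector was added, and to those called in none of the 6 comparisons. Of other matrix genes, up to 3 per list and comparison with the smallest adjusted p may be named. Promoter sequences come from RefSeq.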

Additional observations from a re-analysis of the deposited data

How the results depend on the processing

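The alternatives were normexp background correction, quantile scaling, median centring, filtering dim probes not at all or on every array, averaging probes, limma's trended robust spread, 2-group fits, the replicate block, stricter call rules, the authors' table, close pairs averaged, the arrays that stood apart left out, and each array left out. Averaging close pairs and leaving out the arrays that stood apart were set in advance with earlier results known. The counts below are of the 51 genes, for RASV12-first over shp53-first, RASV12 over shp53, shp53-first over shp53, RASV12-first over RASV12, RASV12-first over shp53 and shp53-first over RASV12 cells in that order, against 14, 39, 38, 27, 35 and 16 as reported. Normexp gave 0, 16, 14, 8, 17 and 4; for the 0, 9 genes had an unadjusted p under 0.05. With 75 extreme local backgrounds set to the median of their array, an alternative added after the data were seen, normexp gave 12, 38, 37, 24, 36 and 16. Close pairs averaged gave 3, 16, 20, 8, 25 and 3. Without the arrays that stood apart the counts were 35, 45, 46, 44, 47 and 37, with 47.8% to 72.2% of all genes called. An adjusted p under 0.01 gave 8, 29, 30, 16, 31 and 10. Leaving out each array gave 9 to 17, 31 to 39, 32 to 39, 19 to 30, 33 to 38 and 11 to 18; the lowest of the first came without RASV12-first replicate 3. The calls held in every one of these in 9, 31, 31, 18, 32 and 11 genes. The replicate block gave 16, 38, 38, 27, 36 and 18, and 20 for the 2 orders fitted alone, with 11 of the 14 calls kept. Median centring moved the median of all genes from 0.00 to 0.25 in RASV12-first over shp53-first, from -0.07 to 0.19 in RASV12-first over RASV12 and from 0.02 to 0.36 in RASV12-first over shp53 cells. It split the calls into 9 higher and 7 lower, 12 and 14, and 5 and 28 there, against 6 and 8, 7 and 20, and 3 and 32. The median of the 51 genes between the orders ranged from -0.10 to 0.31 over the alternatives. Signs turned under normexp in RASV12-first over shp53-first cells for Ccn5 (0.62) and Nid2 (0.48), and in RASV12-first over RASV12 cells for Emilin1 (0.17), Fmod (1.01), Fndc1 (1.28), Lamb1 (-0.16) and Nid2 (0.19), all past 0.2 in adjusted p. None of these turned with the extreme local backgrounds replaced. Signs also turned with the mean of the probes for Sparc in shp53-first over shp53 cells (-0.93). Without the arrays that stood apart they turned for Dcn (-0.25) and Ecm1 (-0.35) in RASV12 over shp53, Fbln1 (-0.47) in shp53-first over shp53, Abi3bp (0.75) in RASV12-first over RASV12, Fn1 (-0.28) in RASV12-first over shp53 and Lum (-0.29) in shp53-first over RASV12 cells. The cause was not tested. Genes well above background on no array of a group have only bounds there, and folds of genes above it on 1 or 2 of 3 arrays rest partly on dim signal.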
